A study of Mus musculus with 8 samples.

Results

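The genes described here are 10 chemokines, tumour necrosis factor (TNF) family ligands and receptors that organize lymphoid tissue, measured in the mouse aorta: the chemokines Ccl19, Ccl21a, Cxcl13 and Cxcl12, the lymphotoxin genes Lta and Ltb with their receptor gene Ltbr, the TNF family ligands Tnfsf13b and Tnfsf11, and Cxcr5, the receptor of CXCL13. They were taken by name from a table of 48607 assembled loci, using the locus with the most counts where a name occurred at more than 1 locus, and 10 of 10 were found. Of these, 7 passed the filter on low values (1 FPKM or more in 3 or more libraries) that left 20506 loci for testing, while Lta, Tnfsf11 and Cxcr5 did not. Poly(A) RNA of whole aortas was sequenced in 8 libraries, 5 titled ApoE-/- and 3 titled NPRC-/-ApoE-/-. All of these mice lacked ApoE and had eaten a Western diet for 12 weeks. The NPRC-/-ApoE-/- mice also carried a CRISPR frameshift in exon 1 of Npr3, the gene of the natriuretic peptide receptor NPRC, in every cell of the body, and their ApoE-/- littermates were the controls. ApoE-/- males were bought at 8 weeks of age, and the age at which these littermates began the diet is not given in the sources used here. The genotype field of a library contradicts its title in 4 of the 8. ApoE-/- 4 and ApoE-/- 5 carry NPRC-/-ApoE-/- in that field, and NPRC-/-ApoE-/- 1 and NPRC-/-ApoE-/- 2 carry ApoE-/-. Libraries are called by their titles here, and each comparison was made by title and again by the genotype field.

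In lymph nodes, CCL19 and CCL21 are made by stromal cells and lymphatic endothelium and draw CCR7-bearing T cells and dendritic cells, whereas CXCL13 is made by follicular stroma and draws CXCR5-bearing B cells. Lymphotoxin alpha and beta on lymphocytes signal through the lymphotoxin beta receptor on stroma, which acts through the alternative NF-kB pathway to induce these chemokines, and RANKL (Tnfsf11) and BAFF (Tnfsf13b) support lymph node formation and B cell survival. In atherosclerosis the same genes are known from tertiary lymphoid organs, clusters of B and T cells that form in the adventitia of diseased arteries of ApoE-deficient mice.

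Total counts ran from 62969165 to 86693276 per library. FPKM values are fragment counts normalized for transcript length and sequencing depth. Npr3 ran from 0.62 to 1.69 FPKM under the title ApoE-/- and from 1.13 to 1.39 FPKM under the title NPRC-/-ApoE-/-, so its RNA level did not separate the titled groups. A frameshift need not lower the RNA level. Smooth muscle markers, which define the tissue, were present in every library, with a summed level of 5352 to 13190 CPM (counts scaled to the total count of their library, without further normalization). The library titled ApoE-/- 2 stood apart in B cell genes: its summed level of 10 B cell markers was 144 CPM, while the other 7 libraries had 12.1 to 52.0 CPM. The fold changes of the genes that were highest in this library are given with and without it.

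By title, the largest difference among the genes that passed the filter was that of Cxcl13, the B cell attracting chemokine, which was lower in NPRC-/-ApoE-/- aortas (log2 fold change -2.33, SE 0.71, n = 5 and 3). Tnfsf11, which did not pass the filter, had counts in every library titled ApoE-/- and 0 counts in 2 of the 3 titled NPRC-/-ApoE-/-. Cxcl12, the most widely expressed of the chemokines, was at 0.522 of its ApoE-/- level (unadjusted p = 0.0122, adjusted p = 0.289 in edgeR). The CCR7 ligands Ccl19 and Ccl21a, the lymphotoxins and the receptor Ltbr had unadjusted p-values above 0.05 in edgeR by title. With the genotype field in place of the title, those of Cxcl13, Cxcl12 and Tnfsf11 were also above 0.05, and that of Ccl19 was 0.0234. The study's criterion for a changed gene asks for a fold change above 2 or below 0.5 together with a p-value under 0.05 before adjustment. Of the 7 genes that passed the filter, 1 (Cxcl13) met this criterion by title, where 3.47% of all loci tested did, and 2.39% of all loci tested met it with a lower value in NPRC-/-ApoE-/-. By the genotype field 0 of the 7 met it, where 0.463% of all loci tested did. After Benjamini-Hochberg adjustment the quasi-likelihood test of edgeR called 0 of 20506 loci by title (smallest adjusted p = 0.0525) and 0 by the genotype field. Without adjustment, 2797 loci had a p-value under 0.05 by title and 269 by the genotype field. By title, DESeq2 called 650 of 19295 loci after adjustment (3.37%), and limma on log2(FPKM + 1) called 2 (0.00975%). The criterion was met by 3.89% of the loci in DESeq2 and by 0.853% in limma. The design entry counts 5 and 3 mice, so the spread between libraries is that between animals. The methods text names 5 mice a group for sequencing, and 8 libraries were analysed here.

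**Figure D1:**
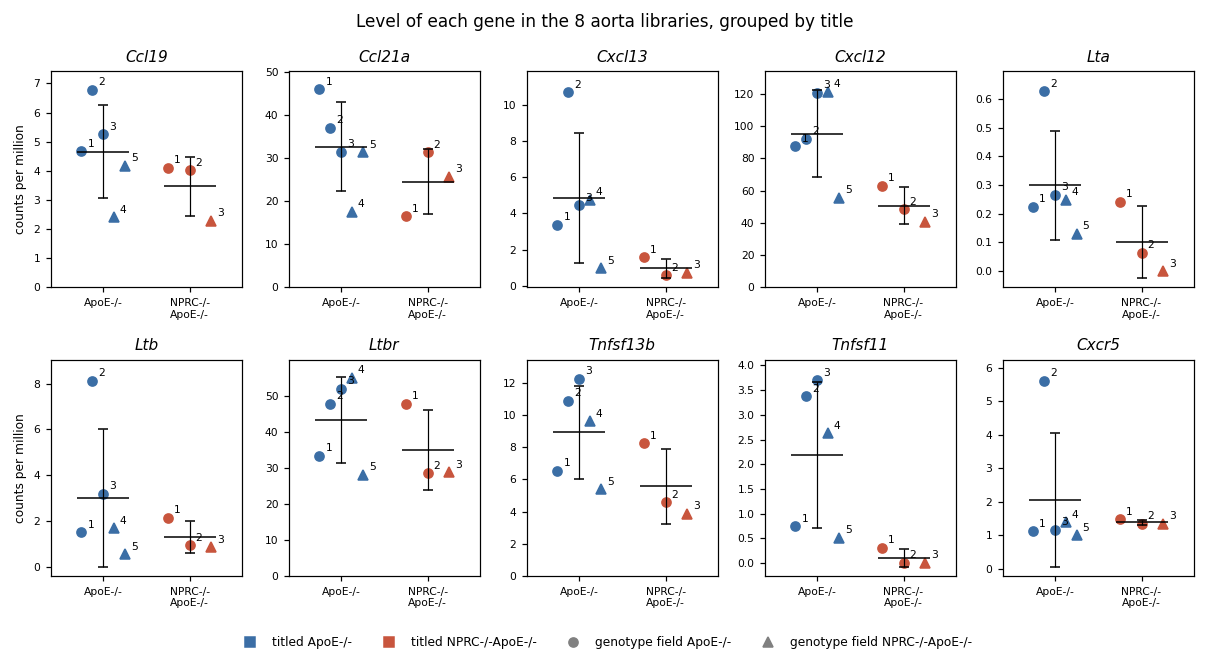
Level of the 10 genes in CPM (vertical axis, linear, 1 panel a gene) in the 8 libraries, numbered as in the titles. Colour gives the title and the symbol gives the genotype field, and lines and bars are the mean and SD of the titled groups (n = 5 and n = 3). Cxcl13, Lta, Ltb, Ccl19 and Cxcr5 are highest in ApoE-/- 2, and Tnfsf11 is the gene whose titled groups do not overlap.

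Cxcl13 (ENSMUSG00000023078) lies on the plus strand of chromosome 5, at chr5:95956951-95961068 in build GRCm38 with the GENCODE M21 annotation, and its locus in the table has the same start and end. Its promoter window, 250 bases before to 50 bases after the start in the RefSeq annotation of GRCm38.p6, is shown because Cxcl13 is the gene that met the criterion and a known target of the lymphotoxin beta receptor. Capitals mark the matches to GGGAG-N-TTTG (N is any base) and to TATAAA.
Cxcl13, chr5:95956689-95956988, plus strand: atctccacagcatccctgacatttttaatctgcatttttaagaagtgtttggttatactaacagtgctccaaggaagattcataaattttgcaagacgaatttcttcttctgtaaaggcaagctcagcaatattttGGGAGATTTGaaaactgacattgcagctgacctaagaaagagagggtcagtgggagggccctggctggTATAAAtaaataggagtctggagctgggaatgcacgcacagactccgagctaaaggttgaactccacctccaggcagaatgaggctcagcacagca
The former, which resembles sites of the alternative NF-kB pathway and was chosen after this window had been seen, begins 114 bases upstream of the start, and 0.347% of 32851 mouse promoter windows of this length hold it on either strand. TATAAA begins 46 bases upstream, and 13.6% of the windows hold it. A match is a match of letters, and binding was not measured.

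In the libraries titled ApoE-/- 1 to 5, the level of Cxcl13 was 3.36, 10.7, 4.45, 4.75 and 0.961 CPM, from 270, 717, 368, 402 and 74 counts. In those titled NPRC-/-ApoE-/- 1 to 3 it was 1.57, 0.588 and 0.724 CPM, from 136, 37 and 62 counts. The titled groups overlapped, because ApoE-/- 5 lay below NPRC-/-ApoE-/- 1, whereas the other 4 libraries titled ApoE-/- lay above all 3 titled NPRC-/-ApoE-/-. The log2 fold change by title was -2.33 (SE 0.71, 95% confidence interval -3.95 to -0.72), with an unadjusted p-value of 0.00976 and an adjusted p-value of 0.285 in edgeR, and DESeq2 gave -2.34 with an adjusted p-value of 0.0122. Cxcl13 reached 1 FPKM in 3 libraries, all titled ApoE-/-, so it passed the filter only through the group in which it was higher. With the genotype field it was -0.86 (SE 0.94, adjusted p = 1 in edgeR). Without ApoE-/- 2 it was -1.86 by title and -0.16 by the genotype field, and without ApoE-/- 4 it was -2.27 by the genotype field (unadjusted p = 0.0576 in edgeR).

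Cxcr5 (ENSMUSG00000047880, chr9:44511787-44561877, minus strand) encodes the receptor for CXCL13 on B cells and follicular helper T cells. Its level was 1.12, 5.61, 1.16, 1.39 and 1.00 CPM in ApoE-/- 1 to 5, and 1.48, 1.35 and 1.34 CPM in NPRC-/-ApoE-/- 1 to 3. ApoE-/- 2 was far above the others, which all lay close together, and the titled groups overlapped. In the fit without a filter on low values, the log2 fold change by title was -0.54 (SE 0.58, adjusted p = 0.709 in edgeR), and without ApoE-/- 2 it was 0.23 (adjusted p = 0.803). The end of this gene overlaps Bcl9l on the other strand, and it is not given in the sources used here whether the counting used strand. ApoE-/- 1, 3 and 4, which had more Cxcl13 than each library titled NPRC-/-ApoE-/-, had 1.12 to 1.39 CPM of Cxcr5, beside 1.34 to 1.48 CPM in these.

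Ccl19 and Ccl21a, the ligands of CCR7, are neighbours on chromosome 4. Ccl19 (ENSMUSG00000071005, chr4:42754525-42756577, minus strand) was at 4.67, 6.79, 5.26, 2.40 and 4.18 CPM in ApoE-/- 1 to 5, and at 4.09, 4.02 and 2.29 CPM in NPRC-/-ApoE-/- 1 to 3. The titled groups overlapped through ApoE-/- 4, which was among the lowest with NPRC-/-ApoE-/- 3, while the other 4 libraries titled ApoE-/- lay above all 3 titled NPRC-/-ApoE-/-. Its log2 fold change was -0.42 by title (SE 0.32, adjusted p = 0.573 in edgeR). Grouped by the genotype field, it was -0.73 (SE 0.27, 95% confidence interval -1.33 to -0.12), with an unadjusted p-value of 0.0234 and an adjusted p-value of 1. These values were -0.26 and -0.60 without ApoE-/- 2. Of the 7 genes, Ccl19 was the 1 with an unadjusted p-value under 0.05 by the genotype field, where 0.697% of the loci tested had such a p-value with a lower level in NPRC-/-ApoE-/-.

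Ccl21a (ENSMUSG00000094686, chr4:42772860-42773993, minus strand) was at 46.0, 37.1, 31.6, 17.5 and 31.4 CPM in ApoE-/- 1 to 5, and at 16.5, 31.4 and 25.7 CPM in NPRC-/-ApoE-/- 1 to 3. The lowest and the next lowest library belonged to different titled groups, and the groups overlapped. By title its log2 fold change was -0.39 (SE 0.29, 95% confidence interval -1.04 to 0.26), and -0.35 by the genotype field, with adjusted p-values of 0.56 and 1 in edgeR. The assembled locus spans 8157 bases, from 42767853 to 42776009, and so reaches beyond the gene on both sides. Its CPM was 9.51 to 9.88 times its FPKM, while the annotated exons cover 0.87 kb. For Ccl19, with 0.867 kb of annotated exons, this ratio was 1.025 to 1.065. The FPKM value of Ccl21a thus lies far below what the annotated exons would give. The ratio rises with the length used but is not itself a length. How many counts lay outside the annotated exons is not given in the sources used here. Near-copies of the gene lie in the same region, and of 771 stretches of 100 bases in its transcript, 15.4% occur in Ccl21b, 49.2% in Gm13304 and 50.3% in Gm21541. The values of Ccl21a are therefore uncertain in how reads were shared among these copies, and Ccl21c is not in the table. The ratio of Ccl21a to Ccl19 counts ran from 4.04 in NPRC-/-ApoE-/- 1 to 11.2 in NPRC-/-ApoE-/- 3, and the 5 libraries titled ApoE-/- lay between these, at 5.46 to 9.86.

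Cxcl12 (ENSMUSG00000061353) encodes the ligand of CXCR4 and ACKR3, which retains leukocytes and progenitor cells in tissues and is made by stromal and vascular cells. The gene lies at chr6:117168535-117181367 on the plus strand, and its assembled locus runs on to 117236445. Its level was 87.5, 92.1, 120.7, 121.1 and 55.7 CPM in ApoE-/- 1 to 5, and 62.8, 48.5 and 40.6 CPM in NPRC-/-ApoE-/- 1 to 3. As for Cxcl13, ApoE-/- 5 was the library that overlapped with the other group, and the remaining 4 titled ApoE-/- were all higher than the 3 titled NPRC-/-ApoE-/-. Its log2 fold change by title was -0.94 (SE 0.30, 95% confidence interval -1.61 to -0.26), with an unadjusted p-value of 0.0122 and an adjusted p-value of 0.289 in edgeR. The unadjusted p-value was under 0.05 with a lower level in NPRC-/-ApoE-/- for 7.13% of all loci tested. The fold change of 0.522 (95% confidence interval 0.327 to 0.835) missed the cut of 0.5, and it passed without ApoE-/- 5 (log2 fold change -1.09) or without NPRC-/-ApoE-/- 1 (-1.11). The genotype field gave -0.13 (SE 0.42, adjusted p = 1).

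Lta and Ltb are neighbours on chromosome 17 and encode the lymphotoxins, which lymphocytes express. Ltb (ENSMUSG00000024399, chr17:35194439-35196320, plus strand) encodes the membrane anchor of the lymphotoxin complex. Its promoter window is shown because it was the 1 window, of 9 genes with a window, that held GGG-NN-TTTCC, a form of the NF-kB site.
Ltb, chr17:35194257-35194556, plus strand: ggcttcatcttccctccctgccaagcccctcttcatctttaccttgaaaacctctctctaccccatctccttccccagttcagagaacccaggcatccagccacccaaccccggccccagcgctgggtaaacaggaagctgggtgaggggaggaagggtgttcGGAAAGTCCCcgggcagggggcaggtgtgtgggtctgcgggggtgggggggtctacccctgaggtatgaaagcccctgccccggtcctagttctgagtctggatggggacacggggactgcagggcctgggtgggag
Capitals mark the match, which reads GGG-NN-TTTCC on the minus strand and begins 87 bases upstream of the start. Of the 32851 promoter windows 1.63% hold this motif on either strand. Cxcr5 had no window in the reference.

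Ltb was at 1.52, 8.13, 3.20, 1.69 and 0.558 CPM in ApoE-/- 1 to 5, and at 2.13, 0.937 and 0.864 CPM in NPRC-/-ApoE-/- 1 to 3. ApoE-/- 2 was far above the others, ApoE-/- 5 was the lowest of all, and the titled groups overlapped. Ltb had a log2 fold change of -1.20 by title (SE 0.78, 95% confidence interval -2.97 to 0.57, adjusted p = 0.514 in edgeR) and -1.55 by the genotype field (SE 0.74, adjusted p = 1). Without ApoE-/- 2 it was -0.46 by title and -0.87 by the genotype field. Ltb reached 1 FPKM in 3 libraries, all with ApoE-/- in the genotype field, so in that grouping it passed the filter only through the group in which it was higher. Lta (ENSMUSG00000024402, chr17:35203165-35205351, minus strand), the soluble lymphotoxin and partner of Ltb, was close to the limit of detection. It had 18, 42, 22, 21 and 10 counts in ApoE-/- 1 to 5, and 21, 4 and 0 in NPRC-/-ApoE-/- 1 to 3, and a count of 0 allows up to 0.035 CPM in the last of these libraries. The titled groups overlapped, with NPRC-/-ApoE-/- 1 inside the range of ApoE-/-. Without a filter its log2 fold change was -1.54 by title (SE 1.02, adjusted p = 0.566 in edgeR) and -1.10 by the genotype field (adjusted p = 1). These values were -1.11 and -0.62 without ApoE-/- 2. This limit from a count of 0 covers counting error only.

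Ltbr (ENSMUSG00000030339, chr6:125306571-125313885, minus strand), the lymphotoxin beta receptor of stromal and myeloid cells, varied least of the 10 genes, by 1.96 times between its highest and lowest library. It was at 33.4, 47.7, 51.9, 54.9 and 28.1 CPM in ApoE-/- 1 to 5, and at 47.8, 28.4 and 28.7 CPM in NPRC-/-ApoE-/- 1 to 3. NPRC-/-ApoE-/- 1 lay among the high libraries and ApoE-/- 5 was the lowest, so the titled groups overlapped. The log2 fold change was -0.33 by title (SE 0.30, 95% confidence interval -1.01 to 0.36, adjusted p = 0.651 in edgeR) and -0.12 by the genotype field (SE 0.32, adjusted p = 1).

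Tnfsf13b (ENSMUSG00000031497, chr8:10006467-10039072, plus strand) encodes BAFF, the survival factor of mature B cells, which myeloid and stromal cells make. It was at 6.53, 10.9, 12.2, 9.61 and 5.40 CPM in ApoE-/- 1 to 5, and at 8.25, 4.59 and 3.86 CPM in NPRC-/-ApoE-/- 1 to 3. The titled groups overlapped, with NPRC-/-ApoE-/- 1 above ApoE-/- 1 and 5. The log2 fold change was -0.71 by title (SE 0.37, 95% confidence interval -1.53 to 0.12, adjusted p = 0.423 in edgeR) and -0.39 by the genotype field (adjusted p = 1). It reached 1 FPKM in 3 libraries, all titled ApoE-/-, so like Cxcl13 it passed the filter only through that group. Gm44789 lies on the other strand of its locus.

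Tnfsf11 (ENSMUSG00000022015, chr14:78277445-78308043, minus strand) encodes RANKL, which lymphoid tissue inducer cells, T cells and lymph node stroma express and which also drives osteoclast formation. Its promoter window is shown for comparison with that of Cxcl13, since both hold TATAAA close to the start, here on the other strand.
Tnfsf11, chr14:78307994-78308293, minus strand: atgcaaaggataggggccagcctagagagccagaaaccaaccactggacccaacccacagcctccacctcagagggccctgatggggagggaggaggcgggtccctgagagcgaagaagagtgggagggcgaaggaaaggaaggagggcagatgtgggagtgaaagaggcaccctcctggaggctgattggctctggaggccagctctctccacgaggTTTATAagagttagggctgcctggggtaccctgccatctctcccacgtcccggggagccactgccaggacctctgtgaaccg
Capitals mark the match, which reads TATAAA on the strand opposite to the gene and begins 32 bases upstream of the start. TATAAA was found in the windows of 3 of the 9 genes, those of Cxcl13, Lta and Tnfsf11.

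Tnfsf11 had 60, 226, 306, 222 and 39 counts in ApoE-/- 1 to 5, which gave 0.747, 3.37, 3.70, 2.62 and 0.506 CPM. It had 27, 0 and 0 counts in NPRC-/-ApoE-/- 1 to 3, which gave 0.311 CPM in the first of them. All 5 libraries titled ApoE-/- were above all 3 titled NPRC-/-ApoE-/-, and Tnfsf11 was the 1 gene of the 10 whose titled groups did not overlap. Among all loci in the fit without a filter, 3.52% were higher in every library titled ApoE-/-. The log2 fold change in that fit was -4.38 by title (SE 1.29, 95% confidence interval -7.26 to -1.50), with an unadjusted p-value of 0.00687 and an adjusted p-value of 0.332 in edgeR. With 3 counts per library as the limit, the level was at least 46.0-fold lower in NPRC-/-ApoE-/- 2 and at least 62.5-fold lower in NPRC-/-ApoE-/- 3 than the mean of the libraries titled ApoE-/-. That mean was 2.19 CPM, and ApoE-/- 1 and ApoE-/- 5 lay below it, at 0.747 and 0.506 CPM. The limit covers counting error only and not the spread between the libraries titled ApoE-/-. A further locus with the name Tnfsf11 in the same region had 2, 42, 14, 4 and 0 counts in ApoE-/- 1 to 5 and 0 in each library titled NPRC-/-ApoE-/-. By the genotype field, where ApoE-/- 4 with 222 counts and NPRC-/-ApoE-/- 2 with 0 counts change sides, the groups overlapped and the log2 fold change was -0.58 (SE 1.53, adjusted p = 1).

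**Figure D2:**
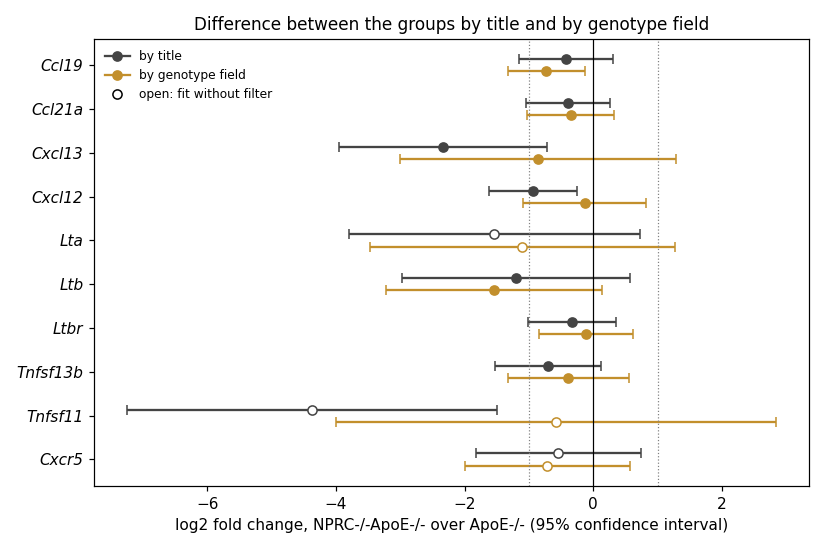
Log2 fold change of NPRC-/-ApoE-/- over ApoE-/- (horizontal axis) with its 95% confidence interval for each of the 10 genes, by title (dark) and by genotype field (ochre). Filled points are from the fit of loci that passed the filter, open points from the fit without it, and dotted lines mark a fold change of 2 in each direction. The intervals of Cxcl13, Cxcl12 and Tnfsf11 by title and of Ccl19 by genotype field lie below 0.

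In the fit without a filter, which holds all 10 genes, 2 (Cxcl13 and Tnfsf11) met the criterion by title, where 5.12% of 44689 loci did, and 0 by the genotype field, where 1.76% did. The fold changes of the 10 genes were below 0 in both groupings. Their median was -0.82 by title and -0.65 by the genotype field, beside -0.04 and -0.01 over all loci of the fit. The share of loci with a fold change below 0 was 53.2% by title and 51.1% by the genotype field. These 10 values share libraries and are not independent of each other, and both groupings hold ApoE-/- 1, 2 and 3 on one side and NPRC-/-ApoE-/- 3 on the other. For the 4 libraries with agreeing labels (3 against 1), which allow no test, the difference in log2 CPM (with a prior count of 2) of NPRC-/-ApoE-/- 3 from the mean of ApoE-/- 1 to 3 was -2.79 for Cxcl13, -1.88 for Ltb, -1.23 for Tnfsf13b, -1.22 for Cxcl12 and -1.18 for Ccl19. It was smaller for Ltbr (-0.53), Ccl21a (-0.48) and Cxcr5 (-0.46), and Tnfsf11 and Lta had 0 counts in NPRC-/-ApoE-/- 3.

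**Figure D3:**
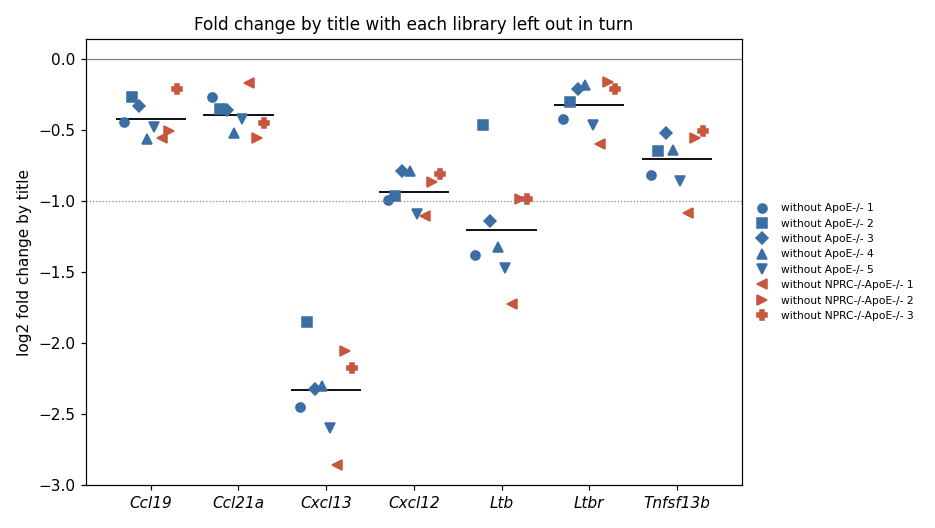
Log2 fold change by title (vertical axis) of the 7 genes that passed the filter, with each of the 8 libraries left out in turn (symbols, colour by the title of the library left out). Horizontal lines are the values with all 8 libraries, and the dotted line marks a fold change of 0.5. Cxcl13 stays between -2.86 and -1.86, and Ltb moves from -1.20 to -0.46 without ApoE-/- 2.

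With each library left out in turn, the fold change of Cxcl13 by title was between -2.86 and -1.86 on the log2 scale and met the criterion in 8 of 8 fits. Cxcl12 was between -1.11 and -0.79 and met it in 2 of 8. Tnfsf13b, between -1.09 and -0.51, met it without NPRC-/-ApoE-/- 1. Ltb was between -1.73 and -0.46 and Ltbr between -0.60 and -0.16. Ccl19 was between -0.56 and -0.21 and Ccl21a between -0.56 and -0.17. These fits kept the loci that had passed the filter with all 8 libraries. Cxcl13, Ltb and Tnfsf13b each reached 1 FPKM in 3 libraries, so without any of these they would not have passed it again. In the fit without ApoE-/- 2, 2.80% of all loci tested met the criterion, and the share was not counted in the other left-out fits. Tnfsf11 met the criterion in 8 of 8 fits without a filter, and in the fit without NPRC-/-ApoE-/- 1 the remaining libraries of that title were both at 0 counts. Lta in these fits was between -3.27, without NPRC-/-ApoE-/- 1, where it met the criterion, and -0.94, without NPRC-/-ApoE-/- 3.

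The genes were also ordered by their level per length. By mean FPKM over the 8 libraries, Ltbr was highest at 14.2, followed by Cxcl12 at 7.90, Ccl19 at 4.02 and Ccl21a at 3.05. Ltb had a mean of 1.30 FPKM, Cxcl13 1.02, Tnfsf13b 0.924, Tnfsf11 0.525, Cxcr5 0.448 and Lta 0.131. Ltbr was above Cxcl12, and Cxcl12 above Ccl19, in 8 of 8 libraries. The neighbours Cxcl13 and Tnfsf13b (3 of 8), Tnfsf11 and Cxcr5 (2 of 8), Ltb and Cxcl13 (6 of 8) and Ccl19 and Ccl21a (6 of 8) changed places between libraries, and the differences of their means were smaller than their SDs. Ccl21a was above Ltb in 7 of 8. When the CPM value was divided by the length of the annotated exons, Ccl21a was first with a mean of 34.1 CPM per kilobase, above Ltbr with 17.0 in 6 of 8 libraries, and Cxcl13, at 2.95, came before Ltb, at 1.57. The place of Ccl21a here is uncertain, since its counts belong to an assembled locus of 8157 bases. On either scale the mean level of the receptor gene Ltbr was above those of its ligand genes Ltb and Lta.

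**Figure D4:**
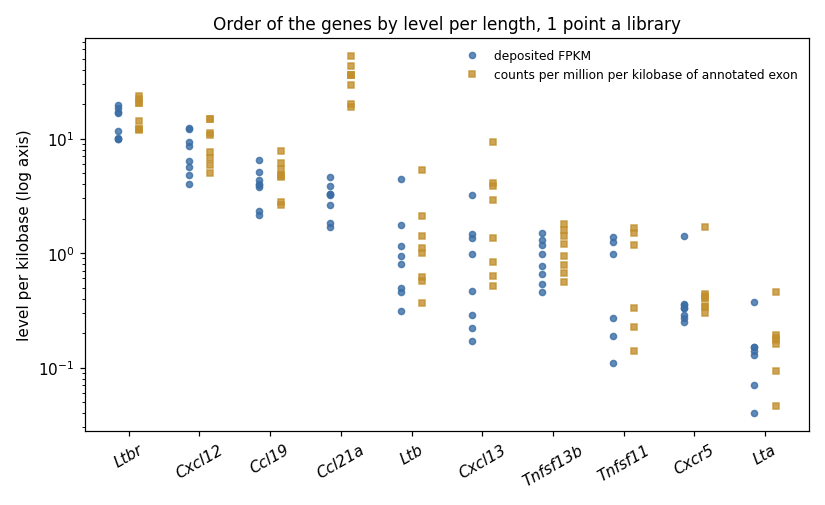
Level per length of the 10 genes on a log axis, with 1 point for each library: deposited FPKM (circles) and CPM per kilobase of annotated exon (squares), ordered by mean FPKM. Libraries at 0 (2 for Tnfsf11 and 1 for Lta) are not drawn. Ccl21a comes after Ltbr, Cxcl12 and Ccl19 by FPKM, with a mean of 3.05, and is highest per annotated exon, with a mean of 34.1.

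The genes differed in which library was highest. ApoE-/- 2 had the highest level of 5 genes (Ccl19, Cxcl13, Lta, Ltb and Cxcr5), ApoE-/- 3 of 2 (Tnfsf13b and Tnfsf11), ApoE-/- 4 of 2 (Cxcl12 and Ltbr) and ApoE-/- 1 of 1 (Ccl21a). ApoE-/- 2 also held the most counts of several single genes of B cells, follicles and high endothelial venules. Ms4a1, the gene of CD20, had 878 counts there and 0 to 156 in the other 7 libraries, and Cr2, a receptor of B cells and follicular dendritic cells, had 1525 counts there and 82 to 378 elsewhere. Chst4, a sulphotransferase of high endothelial venules, had 70 counts there and 0 to 12 elsewhere. Glycam1, another gene of these venules, was also highest in ApoE-/- 2, at 1.57 CPM, but close to ApoE-/- 3, at 1.27 CPM. The summed high endothelial venule genes were at 653.2 CPM in ApoE-/- 2 and highest in ApoE-/- 4, at 902.5 CPM. Lymphoid stroma and follicular dendritic cell genes were at 1391 CPM in ApoE-/- 2 and highest in ApoE-/- 4, at 2071 CPM. Germinal centre and follicular helper genes were at 78.3 CPM in ApoE-/- 2 and highest in ApoE-/- 5, at 93.7 CPM. As a description over the 8 libraries, which share a tissue and differ in its cell markers, the log2 CPM of Cxcl13 had a Pearson correlation of 0.90 with Tnfsf11, 0.87 with Cxcl12 and with Tnfsf13b, and 0.86 with Ltb. That of Tnfsf13b was 0.93 with Ltbr and 0.91 with Cxcl12. The correlations of Ccl21a with the other genes ran from -0.38 with Ltbr to 0.52 with Ccl19. They ran from -0.68 with Cxcr5 to 0.45 with Ccl19 without ApoE-/- 2. Without ApoE-/- 2 the correlation of Cxcl13 was 0.91 with Tnfsf11, 0.97 with Cxcl12, 0.88 with Tnfsf13b and 0.77 with Ltb, and that with Cxcr5 went from 0.61 to 0.12. Tnfsf11 had 0 counts in NPRC-/-ApoE-/- 2 and 3, where the prior count set its log2 CPM to -5.29. Its correlations rest in part on these values.

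**Figure D5:**
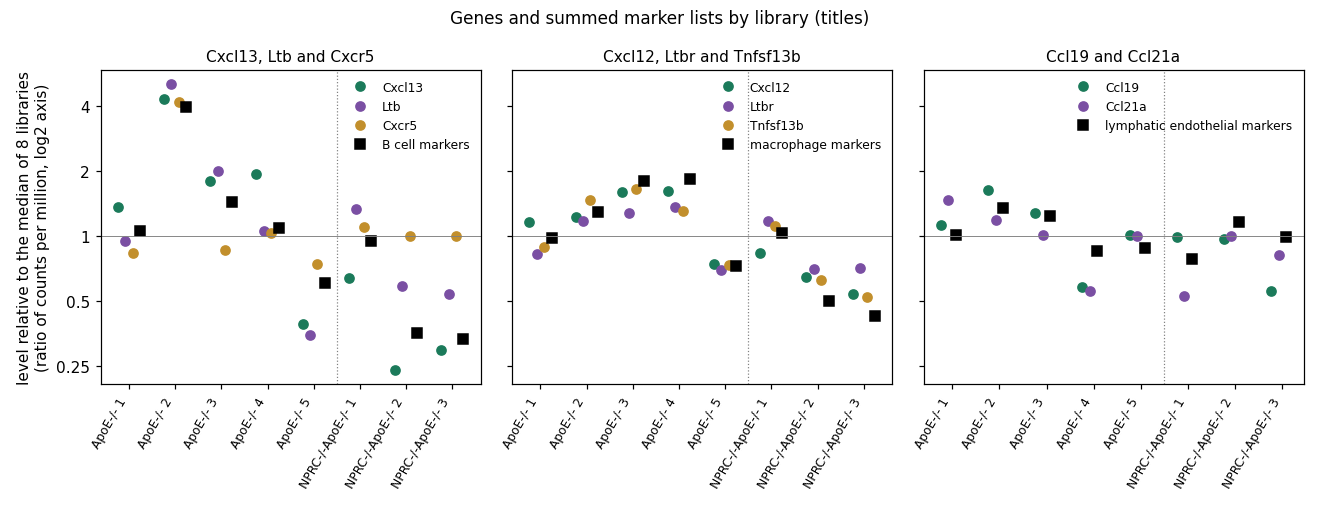
Level of 8 genes and of 3 summed marker lists in each library, divided by its median over the 8 libraries (vertical axis, log2 scale). The dotted line divides the libraries by title. Cxcl13, Ltb, Cxcr5 and the B cell markers are all highest in ApoE-/- 2, and Cxcl12, Ltbr, Tnfsf13b and the macrophage markers are lowest in ApoE-/- 5 and in NPRC-/-ApoE-/- 2 and 3.

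Several marker lists of other cell types differed in level between the titled groups, with ranges that met or overlapped. In the libraries titled ApoE-/- the summed level was 21.9 to 144 CPM for B cell markers, 65.9 to 109 CPM for T cell markers, 1682 to 4232 CPM for macrophage markers and 4940 to 12300 CPM for fibroblast markers. In those titled NPRC-/-ApoE-/- it was 12.1 to 34.1 CPM, 29.1 to 65.9 CPM, 980.1 to 2376 CPM and 3013 to 6491 CPM, respectively. Smooth muscle markers ran the other way, from 5352 to 7812 CPM in ApoE-/- and from 7450 to 13190 CPM in NPRC-/-ApoE-/-, and 8 of 8 were higher by title, with 7 at an unadjusted p-value under 0.05, where 6.51% of all loci tested were higher with such a p-value. Of the macrophage markers 8 of 8 were lower and 2 (C1qa and C1qb) met the criterion, where 2.39% of all loci tested met it with a lower value. Of the dendritic cell markers 4 of 8 passed the filter, and 3 (Itgax, Fscn1 and Cd209a) met the criterion with lower levels. The other, Zbtb46, had a log2 fold change of 0.07 by title (SE 0.12) and did not meet the criterion. By the genotype field 0 genes of these lists met it, and the median log2 fold change was -0.16 for macrophage, -0.17 for dendritic cell, -0.08 for fibroblast and 0.17 for smooth muscle markers. Endothelial markers differed little, at 1182 to 1360 CPM and 1143 to 1242 CPM, and white adipocyte markers, at 319.4 to 1263 CPM and 649.1 to 968.3 CPM, and brown adipocyte markers, at 187.4 to 857.8 CPM and 521.5 to 874.4 CPM, overlapped widely. Lymphatic endothelial markers, which mark a known source of Ccl21a, had 83.6 to 133.3 CPM and 77.0 to 115.1 CPM in the 2 titled groups, with 2 genes lower, 3 higher and 0 that met the criterion. In RNA of a whole tissue, fewer cells of a type and less RNA per cell cannot be told apart. A covariate was formed as the mean log2 CPM of the B and T cell markers that passed the filter (2 and 4 genes). It holds Cd22 and Cd4, which themselves met the criterion with lower levels by title. With this covariate in the fit by title, the log2 fold change of Cxcl13 was -0.03 (unadjusted p = 0.965 in edgeR). That of Cxcl12 was -0.19 and that of Ltb 1.67 (unadjusted p = 0.0462 in edgeR). The marker level differs between the titled groups and was measured in the same libraries, and its part in the differences was not tested.

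Among 12 receptors of these ligands, 10 passed the filter, and 4 met the criterion with lower levels by title, where 2.39% of all loci did. They were Ccr7, the receptor of CCL19 and CCL21 (log2 fold change -1.58, SE 0.63), Tnfrsf13b, a BAFF receptor of B cells (-1.34, SE 0.52), Cxcr4, the receptor of CXCL12 (-1.31, SE 0.56), and Tnfrsf1b, a TNF receptor of leukocytes (-1.06, SE 0.46). Their adjusted p-values in edgeR were 0.328 to 0.357. Ccr7 was at 4.82, 10.3, 4.20, 6.09 and 2.22 CPM in ApoE-/- 1 to 5 and at 3.79, 0.953 and 0.841 CPM in NPRC-/-ApoE-/- 1 to 3, so that the titled groups overlapped. Ackr3, the scavenging receptor of CXCL12, had a log2 fold change of -0.13 (SE 0.15), the RANK gene Tnfrsf11a -0.12 (SE 0.17) and the RANKL decoy gene Tnfrsf11b -0.64 (SE 0.37). Ackr4 and Tnfrsf13c did not pass the filter. Ackr4 was at 2.4 to 6.4 CPM under the title ApoE-/- and at 6.1 to 8.1 CPM under NPRC-/-ApoE-/-, so the titled groups overlapped. Tnfrsf13c had 191 counts in ApoE-/- 2 and 0 to 45 elsewhere. Without ApoE-/- 2, 1 of the 10 receptors (Tnfrsf1b) met the criterion, and 2.80% of all loci did in that fit. By the genotype field 0 of the 10 did.

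The alternative NF-kB pathway carries the signal of the lymphotoxin beta receptor. All 8 of its genes in the list passed the filter and 0 met the criterion, with a median log2 fold change of -0.21 by title, beside -0.01 over all loci. Birc3, a ubiquitin ligase and target of NF-kB, had -0.93 (SE 0.23, unadjusted p = 0.00302, adjusted p = 0.255 in edgeR), Map3k14, the kinase NIK, had -0.51 (SE 0.22), and its locus holds another gene name. Nfkb2 had -0.47 (SE 0.24), Chuk -0.18 (SE 0.12) and Relb -0.09 (SE 0.21). Grouped by the genotype field, 5 of the 8 were lower and 3 higher.

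Of the genes of high endothelial venules 4 of 10 passed the filter and 0 met the criterion: the log2 fold change by title was -0.96 for Vcam1 (SE 0.45), -0.72 for Icam1 (SE 0.27), -0.91 for the locus with Ackr1 (SE 0.26) and -0.81 for Chst2 (SE 0.32). Vcam1 and Icam1 are adhesion molecules that other endothelium also expresses. Of the genes of lymphoid stroma and follicular dendritic cells 6 of 8 passed it and 0 met the criterion, among them Clu (-0.73, SE 0.36), Mfge8 (-0.58, SE 0.34), Pdgfrb (-0.02, SE 0.18) and Il33 (-0.95, SE 0.30). Of the germinal centre and follicular helper genes 3 of 8 passed it, and Pdcd1, the inhibitory receptor PD-1 of activated T cells, met the criterion (-1.85, SE 0.65, adjusted p = 0.309 in edgeR) but had passed the filter only through 3 libraries titled ApoE-/-, while Bcl6 had -0.04 (SE 0.23) and S1pr2 -0.51 (SE 0.33). Of the related ligands 3 of 11 passed it and 0 met the criterion. They were Tnf (-0.77, SE 0.48), Ccl21b (-0.38, SE 0.49) and the locus with Tnfsf13 (-0.45, SE 0.22), which also holds the macrophage marker Cd68. Of the B cell markers 2 of 10 passed the filter, with Cd22 at -1.54 (SE 0.44), and of the T cell markers 4 of 10, with Cd4 at -1.56 (SE 0.33). These 2 genes met the criterion also without ApoE-/- 2, where 2.80% of all loci tested met it. By title with all 8 libraries, 2.39% of all loci tested met it with a lower value. With the genotype field 0 genes of these lists met the criterion.

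The loci whose levels were most like those of 5 of the genes over the 8 libraries, by the Pearson correlation of log2 CPM, are given as a description. The nearest to Cxcl13 were the locus with Gm2427 and Sp140 (0.974), the immunoglobulin segment Ighv1-9 (0.973) and Gimap3 (0.970), and Ighv1-9 ran from 0 to 15.8 FPKM. The nearest to Ltb were Ccnl1 (0.975), the light chain segment Igkv1-135 (0.961) and Zc3h12a (0.955). Those to Cxcl12 were Hmox1, the haem oxygenase of macrophages (0.992), Dcakd (0.990) and the locus with Serpinb6a and Serpinb6c (0.990). The nearest to Ccl19 were Ppm1h (0.966), Gm16091 (0.938) and Gm11365 (0.929), and those to Ccl21a were Wdr44 (0.976), Zfp703 (0.971) and the locus with Egfl7, Mir126a, Gm20532 and Fam69b (0.963). Each was chosen as the highest of many loci tested. Without ApoE-/- 2 the values of these loci were 0.918 to 0.992.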

How the data were processed

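Values of 8 aorta RNA-seq libraries were analysed. Reads were quality-trimmed by the authors, aligned using HISAT2 and assembled using StringTie. They deposited, for each locus and library, a raw count (whole numbers, not normalized) and an FPKM value normalized to transcript length and library size. The submitters' processing notes name cutadapt 1.9, FastQC and build GRCm38. How the counts came from the assembly and whether strand was used are not given in the sources used here. The table had 0 columns of values without a sample.

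Groups follow the titles, and again the genotype field. The 20506 loci that reached 1 FPKM in 3 or more of the 8 libraries were tested in R 4.3.3 with edgeR 4.0.16 on the counts (TMM, dispersion trend, quasi-likelihood test, Benjamini-Hochberg adjustment over all loci tested). The biological coefficient of variation was 0.327. The number of libraries limits the precision. CPM values are counts scaled to the total count of the library. The script was tested on simulated data. Genes, gene lists and tests were chosen with earlier results of these data known. Named genes are the 10 genes and, of the lists, those that met a call rule and otherwise up to 3 per list with the highest mean FPKM among those tested. The 3 nearest loci were sought for 5 of the genes where they had a name and a mean of at least 1 FPKM. Further receptor, signalling, venule and stroma genes, and the genes with the counts in ApoE-/- 2, were named after their values were seen. Alternatives were no filter, filterByExpr, other scalings, DESeq2 1.42.0, limma 3.58.1 on log2(FPKM + 1) or log2(FPKM + 0.1), limma with quality weights, summed loci, a marker covariate, a replicate block and each library left out. Left-out fits without a filter, and list counts and correlations without ApoE-/- 2, were added after the data were seen. Libraries were treated as unpaired, since the sources used here do not state that title numbers pair animals. Same-numbered libraries did not deviate together (correlations -0.274, -0.128 and -0.012). With so few libraries and contradicted titles, these values cannot exclude a pairing. Promoter windows are from RefSeq and matched 9 of the 10 genes.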

Additional observations from a re-analysis of the deposited data

Results flagged for a closer look

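Within a group, 1 library lay far from the rest in 5 of 52 comparisons of a library with its group. Chance alone would give about 1 in 20, or 2.6, for independent comparisons of normally distributed values. These comparisons were made on CPM, both groupings share libraries, and Cxcr5 in ApoE-/- 2 is counted in both. The 2.6 is therefore only a rough guide. In ApoE-/- 2, Lta was at 0.627 CPM among the 5 libraries titled ApoE-/-, and the next value was 0.266 CPM. In the same library Cxcr5 was at 5.61 CPM, where the next value was 1.39 CPM among the libraries titled ApoE-/- and 1.48 CPM among those with ApoE-/- in the genotype field. The summed B cell markers were at 144 CPM there, and the next library titled ApoE-/- had 52.0 CPM. The smooth muscle markers of the library titled NPRC-/-ApoE-/- 2 were at 11620 CPM, beside 7450 CPM in the next of the libraries with ApoE-/- in the genotype field.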

How the results depend on the processing

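By title, 1 of the genes tested (Cxcl13) met the criterion of fold change and unadjusted p-value. The count was 2 without a filter and with filterByExpr (Cxcl13 and Tnfsf11, of 10 genes tested), 2 with the loci of a name summed (Cxcl13 and Tnfsf11, of 8 tested), 2 with quality weights (Cxcl13 and Cxcl12), 0 with limma on log2(FPKM + 1), 0 with the genotype field, and 1 to 3 with each library left out. With the level of the B and T cell markers that passed the filter as a covariate it was 1. That gene was Ltb (1.67), however, and Ltbr (0.65) and Tnfsf13b (0.48) also reversed. After adjustment the count was 0 in edgeR and 1 in DESeq2 (Cxcl13). By the genotype field the count was 0, with 1 (Ltb) in DESeq2 and 0 to 1 with each library left out. Fold changes by the genotype field reversed with a library left out for Cxcl12 (-0.76 to 0.15), Ltbr (-0.54 to 0.091), Tnfsf11 (-2.79 to 0.052) and Cxcr5 (-0.88 to 0.015), and by title for Cxcr5 (-0.73 to 0.23, the latter without ApoE-/- 2). The cause was not tested for any of these. Of the alternatives by title, 75 of the values with 1 library left out and 87 of the others kept their direction and side of the threshold, while 4 and 2 newly passed it, 0 and 3 lost it and 1 and 3 reversed. Per annotated exon, the mean level was 34.1 CPM per kilobase for Ccl21a and 2.95 for Cxcl13. With the replicate number as a block, 1 gene met the criterion (Cxcl13, -2.60), and the same 6 libraries without the block gave 2 (Cxcl13 and Ltb). At this depth Lta was near the limit of detection, as was Tnfsf11 in NPRC-/-ApoE-/- 2 and 3.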
